A study of Hordeum vulgare with 22 samples.

Results

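The line difference at Waddington stage W3.5, when stamen primordia appear on the barley (Hordeum vulgare) inflorescence, was described over all genes, from 3 libraries of the mutant line mnd1.a against 4 libraries of the cultivar Bowman. These 7 libraries are among 22 samples of the series, chosen by line and stage in the labels. The mutant is labelled as mnd1.a in the Bowman genetic background and Bowman as wild type, so both groups share that background, long days and a midday harvest. Each sample was an inflorescence with its base and the small leaves under it, so that in these bulk samples fewer cells of a type and less RNA per cell cannot be told apart. Only 1 mutant line was compared, so the mnd1.a allele and any other difference between the lines cannot be told apart. Whether libraries of a group came from separate plants is not given in the labels, and p-values then measure only the spread between these samples.

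MND1 (MANY NODED DWARF 1) encodes an acyl-CoA N-acyltransferase, and its mutants are many-noded dwarfs with more leaves. In grasses the meristem turns from making leaves to making spikelets and florets under MADS-box transcription factors, among them the AP1/FUL-like gene VRN-H1 and the SEPALLATA-like genes. TERMINAL FLOWER 1 proteins act against this step, and GROWTH-REGULATING FACTORs and homeodomain-leucine zipper factors such as VRS1 shape the organs that follow.

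The 7 libraries held 11436651 to 21596190 estimated counts, and 21132 of 24318 genes were tested. The Bowman libraries differed among themselves more than the libraries of any other group, with a median SD of 0.265 on the log2 scale of CPM, the library-scaled counts per 1000000, against 0.188 in mnd1.a at W3.5. Within mnd1.a, replicates 1 and 2 lay closest together, with a mean chi-square per gene of 3.26 between them, above the 1 that sampling noise gives, while every other pair of W3.5 libraries had 9.66 to 50.2. The columns are headed W3.0 in the count table and W3.5 in the labels.

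MND1 itself (HORVU7Hr1G113480, chromosome 7H, 637080378 to 637082097 as the table gives it) was lower in every mnd1.a library. It had 4.55, 4.13 and 3.48 CPM in mnd1.a libraries, against 14.4, 24.1, 15.9 and 30.6 CPM in Bowman. The groups did not overlap, and Bowman replicates 2 and 4 were the highest. The log2 fold change was -2.38 ± 0.38 (SE, edgeR quasi-likelihood adjusted p = 0.00141), and the fit on the 7 libraries alone also called it (adjusted p = 0.0167). Transcript remained in all 3 mutant libraries.

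At an adjusted p under 0.05, 826 genes differed between mnd1.a and Bowman at W3.5, which is 3.91% of the genes tested. Of these 375 (1.77%) were higher and 451 (2.13%) lower in mnd1.a, and 348 differed at least 2-fold. The spread behind these calls was shared among all 21 libraries. With the spread taken from the 7 W3.5 libraries alone, 94 of 19429 genes (0.484%) were called, 39 higher (0.201%) and 55 lower (0.283%), and 93 of them were among the 826. Single libraries moved the count by more than 1.5 times: it was 303, 265 and 1350 without mnd1.a replicates 1, 2 and 3, and 2273, 481 and 512 without Bowman replicates 1, 2 and 4. On the mutant side, the 1350 calls rest on replicates 1 and 2 alone, the pair that lay closest together. At this stage the authors' deposited table lists an FDR under 0.05 for 664 genes (2.73%), and 591 of the 826 are among them with the same sign. In 759 of the 826 all mnd1.a libraries lay on 1 side of all Bowman libraries, against 2720 of all genes tested (12.9%). The 826 were chosen by a test between these same libraries, which by itself favours such separation, so this is only a description. Called or not, 10258 of the 21132 genes tested had a fold change above 0 and 10793 below 0.

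Each library was placed on the Bowman course from W2.0 to W5.0, where 0 is the mean of the Bowman W2.0 libraries and 1 that of the Bowman W5.0 libraries. The mnd1.a libraries at W3.5 stood together at 0.555, 0.517 and 0.563, against 0.545, 0.847, 0.662 and 1.03 for Bowman replicates 1 to 4. Bowman replicate 1 thus lay among the mnd1.a libraries, and Bowman replicates 2 and 4 lay within the range of the Bowman W5.0 libraries, 0.804 to 1.13. All 7 libraries carry the code prefix 1327. The Bowman W2.0 libraries carry 1328 and the Bowman W5.0 libraries 1327, so stage and prefix cannot be told apart along this course.

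**Figure D1:**
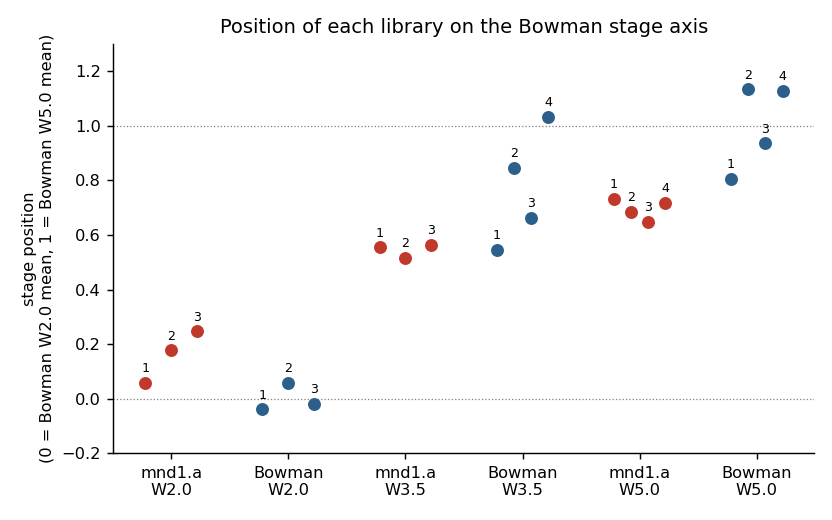
Stage position of each library (vertical axis, no unit) by line and stage (horizontal axis), with mnd1.a in red and Bowman in blue and the replicate number above each point. Positions are 0 at the Bowman W2.0 mean and 1 at the Bowman W5.0 mean. At W3.5 the mnd1.a libraries lie between 0.517 and 0.563 and the Bowman libraries between 0.545 and 1.03.

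Most of the genes that differed also changed over this course in Bowman. Of the 451 genes lower in mnd1.a at W3.5, 295 (65.4%) were higher at W5.0 than at W2.0 in Bowman and 14 were lower, where 22.3% of all genes tested were higher and 23.9% lower. Of the 375 genes higher in mnd1.a, 224 (59.7%) were lower at W5.0 than at W2.0 in Bowman and 14 were higher. No W3.5 library entered the Bowman course. The remaining 142 lower and 137 higher genes had no call over the course.

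**Figure D2:**
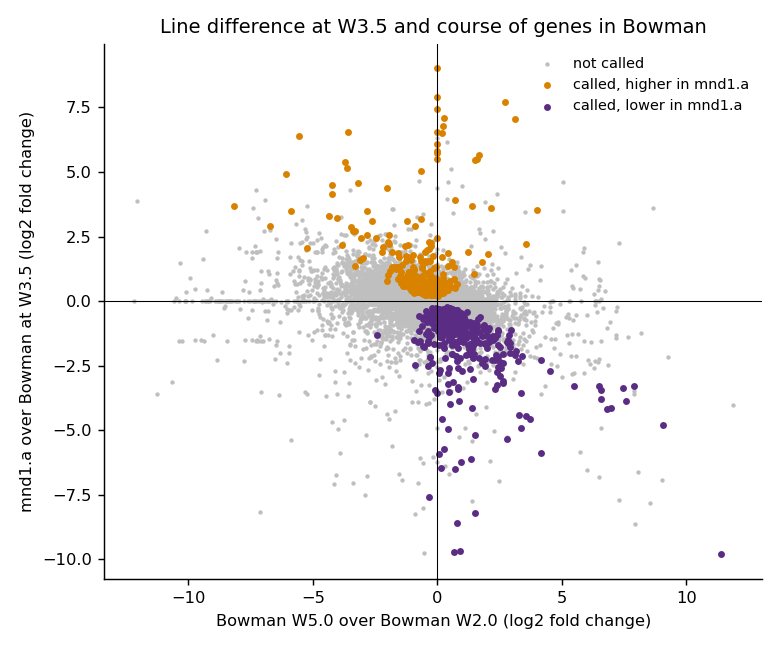
Line difference at W3.5 (vertical axis, log2 fold change of mnd1.a over Bowman) against the course in Bowman (horizontal axis, log2 fold change of W5.0 over W2.0), 1 point per gene. Purple points, called lower in mnd1.a, lie mostly on the right (295 of 451 called higher at W5.0), and orange points, called higher, mostly on the left (224 of 375 called lower at W5.0).

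Set against Bowman replicate 1 alone, which shares the stage position of the mutant libraries, the 451 lower genes had a median log2 difference of -0.67, while against replicates 2, 3 and 4 it was -1.05, -0.95 and -1.09. For the 375 higher genes the medians were 0.45 against replicate 1 and 0.60, 0.71 and 0.73 against replicates 2, 3 and 4. These are descriptions of genes chosen with the same libraries. With stage position added to the model as a covariate, an alternative chosen after seeing the data, 175 genes were called (0.828%), 64 higher and 111 lower, and 143 of them were among the 826. The covariate varied only among the W3.5 libraries and was constant in all others. Its slope thus came from the W3.5 libraries, chiefly those of Bowman, whose positions spread most. The positions come from the same counts as the genes tested, and the part of developmental stage in the line difference was not tested.

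MADS-box genes were the list with the largest share of calls among the lists of more than 10 tested genes. Of 35 tested, 12 fell in mnd1.a and 0 rose at an adjusted p under 0.05, against 2.13% lower among all genes, and their median log2 fold change was -1.0 against -0.01 over all genes. All 12 are higher at W5.0 than at W2.0 in Bowman, as are 22 of the 35, and Bowman replicate 4 had the highest level of all 12. The fit on the 7 libraries alone called 1 of them, as did the fit with the position covariate and the fit without Bowman replicates 2 and 4, in which 344 of all genes (1.59%) were called. Leaving out 1 library gave 2 to 17 calls lower.

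The MADS-box gene called in all of these fits was MADS34 (HORVU5Hr1G095710, 5H, 599329821 to 599336076), a SEPALLATA-like gene whose rice counterpart acts in spikelet meristems. It had 0.356, 0.795 and 1.46 CPM in mnd1.a libraries, against 13.7, 30.1, 18.8 and 48.4 CPM in Bowman. The groups stood far apart, also against Bowman replicate 1. The log2 fold change was -4.93 ± 0.74 (adjusted p = 0.00105, 0.0204 on the 7 libraries alone and 0.0134 with the covariate). At W2.0 the mean was 2.68 CPM in mnd1.a libraries, against 3.60 CPM in Bowman, and at W5.0 7.70 CPM in mnd1.a libraries, against 36.9 CPM in Bowman.

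VRN-H1 (HORVU5Hr1G095630, annotated as MADS14, 5H, 599122941 to 599133084), the vernalization gene that promotes the floral transition, had 127, 141 and 147 CPM in mnd1.a libraries, against 184, 288, 306 and 306 CPM in Bowman. All mutant libraries were below all Bowman libraries, of which replicate 1 stood lowest. Its log2 fold change was -0.97 ± 0.18 (adjusted p = 0.00452), and the call was lost on the 7 libraries alone (0.0795), with the covariate (0.121) and without Bowman replicates 2 and 4 (0.0533). Its level in mnd1.a was near that of both lines at W2.0, with means of 127 CPM in mnd1.a libraries, against 118 CPM in Bowman.

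The SEPALLATA-like MADS5 (HORVU7Hr1G025700) had 0.284, 0 and 1.83 CPM in mnd1.a libraries, against 5.94, 19.1, 15.3 and 46.9 CPM in Bowman (log2 -4.79 ± 0.95, adjusted p = 0.0101). MADS6 (HORVU6Hr1G066140), an AGL6-like gene of floret meristems in rice, had no counts in mnd1.a, against 2.17, 7.38, 4.09 and 17.2 CPM in Bowman, at least 111-fold lower when 3 counts are put over the whole group (adjusted p = 0.0244). For both genes the groups did not overlap, and the call was lost without mnd1.a replicate 1 or 2 (highest adjusted p 0.0645 for MADS5 and 0.0848 for MADS6).

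Of the genes of the organ identity classes, the 3 given next were called with smaller margins. MADS16 (HORVU7Hr1G091210), a class B gene of lodicules and stamens in rice, had 0, 0.318 and 1.46 CPM in mnd1.a libraries, against 2.24, 7.72, 3.62 and 13.8 CPM in Bowman (log2 -3.37 ± 0.89, adjusted p = 0.0442). The class B gene MADS4 (HORVU1Hr1G063620) had 0.498, 0.954 and 2.75 CPM in mnd1.a libraries, against 3.90, 16.3, 7.19 and 30.1 CPM in Bowman (log2 -3.27 ± 0.77, adjusted p = 0.0270). Both were named after their values were seen, to stand beside the class C gene MADS3. MADS3 (HORVU3Hr1G026650) had 0, 0.0795 and 0.732 CPM in mnd1.a libraries, against 0.639, 3.32, 2.33 and 5.82 CPM in Bowman, and the groups overlapped at Bowman replicate 1 (log2 -3.30 ± 0.86, adjusted p = 0.0399). None of these 3 was called without mnd1.a replicate 1 or 2 or without Bowman replicate 2 or 4 (highest adjusted p 0.175, 0.128 and 0.171).

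MADS2 (HORVU3Hr1G091000), MADS56 (HORVU1Hr1G051660) and MADS8 (HORVU5Hr1G076400) also fell, with log2 fold changes of -2.10, -1.91 and -3.46 (adjusted p = 0.0132, 0.0199 and 0.0385). Of these, MADS2 lost its call without mnd1.a replicate 2, MADS56 without mnd1.a replicate 1 or 2, and MADS8 also without Bowman replicate 2 or 4 (highest adjusted p 0.0814, 0.0970 and 0.165). Not every MADS-box gene called lower is named here, and the members that follow did not pass. MADS15 (HORVU2Hr1G063800), AP1/FUL-like as VRN-H1 is, had 7.68, 9.54 and 37.5 CPM in mnd1.a libraries, against 44.2, 90.4, 58.2 and 116 CPM in Bowman, with mnd1.a replicate 3 nearest to Bowman (log2 -2.06 ± 0.58, adjusted p = 0.0577). MADS1 (HORVU4Hr1G067680) and MADS7 (HORVU7Hr1G054220) had adjusted p of 0.0565 and 0.0603, and the second MADS14 gene (HORVU1Hr1G047560) had 0.459. Without mnd1.a replicate 3 or Bowman replicate 1, each of MADS15 and MADS1 had an adjusted p under 0.05 (lowest 0.00971 and 0.0208).

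**Figure D3:**
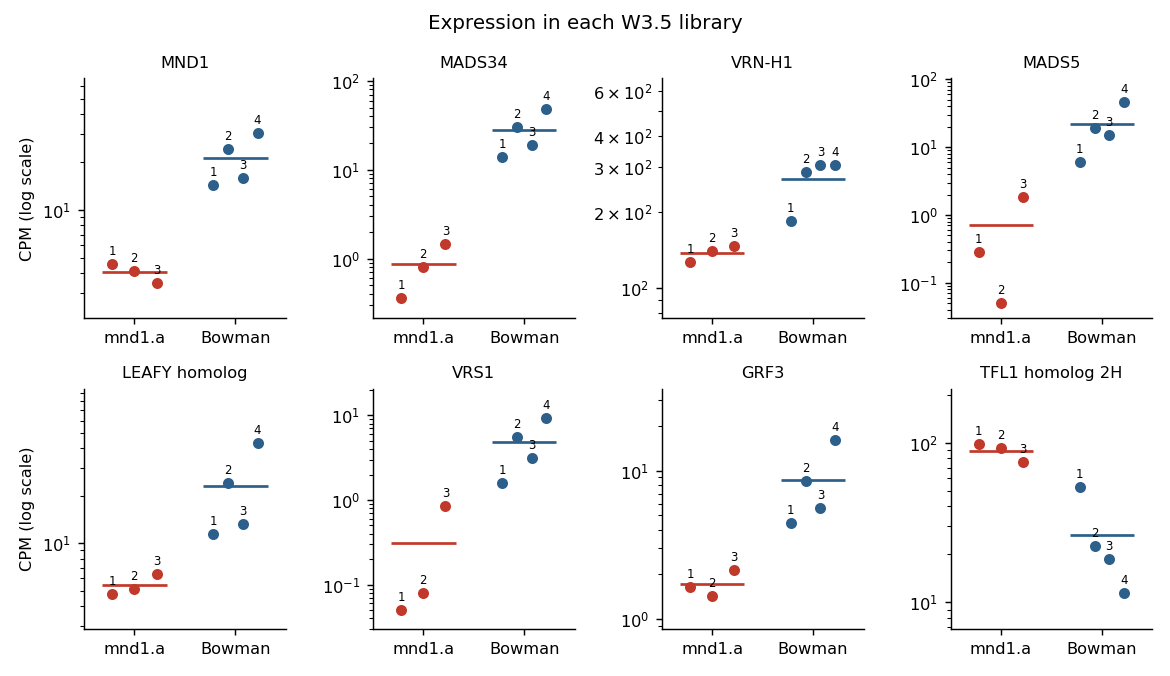
CPM in each W3.5 library (log scale) of 8 genes, with mnd1.a in red on the left of each panel and Bowman in blue, replicate numbers above the points and the mean of each line as a bar. A CPM of 0 is drawn at 0.05. MADS34 lies at 0.356 to 1.46 CPM in mnd1.a and 13.7 to 48.4 CPM in Bowman, and Bowman replicate 4 is the highest for MND1, MADS34, MADS5, the LEAFY homolog, VRS1 and GRF3 and the lowest for the TFL1 homolog on 2H.

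Upstream regulators of the floral transition moved in both directions. The LEAFY homolog (HORVU2Hr1G102590), a meristem identity factor, had 4.76, 5.09 and 6.41 CPM in mnd1.a libraries, against 11.4, 24.2, 13.2 and 43.3 CPM in Bowman, with a log2 fold change of -2.07 ± 0.36 (adjusted p = 0.00338). The groups did not overlap, and the call held without Bowman replicates 2 and 4 (0.0101) but not on the 7 libraries alone (0.167) or with the covariate (0.0543). FLOWERING PROMOTING FACTOR 1 (HORVU2Hr1G007350) had 0.924, 1.67 and 1.83 CPM in mnd1.a libraries, against 3.32, 7.05, 4.01 and 15.1 CPM in Bowman (log2 -2.28 ± 0.48, adjusted p = 0.0124, and 0.212 on the 7 libraries alone), and the call ended when mnd1.a replicate 1 or 2 was left out (highest 0.0804).

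A TERMINAL FLOWER 1 homolog on 4H (HORVU4Hr1G078770), of the family that delays flowering, had 1.21, 1.91 and 3.72 CPM in mnd1.a libraries, against 1.02, 0.498, 0.172 and 0.421 CPM in Bowman. It was higher by 2.16 ± 0.58 on the log2 scale (adjusted p = 0.0448), and 6 of the 7 fits that left out 1 library lost the call, with a highest adjusted p of 0.154. The more abundant homolog on 2H (HORVU2Hr1G072750) had 98.6, 93.2 and 75.9 CPM in mnd1.a libraries, against 52.8, 22.6, 18.8 and 11.4 CPM in Bowman. Its groups did not overlap, with Bowman replicate 1 nearest to the mutant, and it narrowly missed the threshold (log2 1.75 ± 0.49, adjusted p = 0.0556). PPD-H1 (HORVU2Hr1G013400), the photoperiod response gene, had 133, 124 and 133 CPM in mnd1.a libraries, against 135, 164, 106 and 165 CPM in Bowman (adjusted p = 0.542). By edgeR 0 of the 29 CONSTANS-like and clock genes tested were called, with 3 at an unadjusted p under 0.05, and 0 were called by DESeq2 and limma-voom and 4 by limma-voom with library weights.

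Among the factors of organ growth and patterning, 3 of 17 GROWTH-REGULATING FACTOR and cofactor genes fell and 0 rose, against 2.13% lower over all genes, and 16 of the 17 had a negative fold change (median -0.32). Leaving out 1 library gave 2 to 6 lower. GRF3 (HORVU0Hr1G016590) had 1.64, 1.43 and 2.14 CPM in mnd1.a libraries, against 4.41, 8.46, 5.60 and 16.1 CPM in Bowman (log2 -2.28 ± 0.40, adjusted p = 0.00312). GRF4 (HORVU6Hr1G068370) had 14.2, 13.8 and 17.1 CPM in mnd1.a libraries, against 24.2, 46.8, 34.5 and 76.8 CPM in Bowman (log2 -1.59 ± 0.30, adjusted p = 0.00569), and a second GRF4 gene (HORVU0Hr1G026650) fell by 1.78 (adjusted p = 0.0106). In these genes too, Bowman replicate 1 was the lowest and replicate 4 the highest Bowman library, and each of the 3 lost its call on the 7 libraries alone and with the covariate. The second GRF4 gene lost it also without mnd1.a replicate 1 or 2 (highest adjusted p 0.0767).

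VRS1 (HORVU2Hr1G092290), the homeodomain-leucine zipper gene that holds back the lateral spikelets in 2-rowed barley, had 0, 0.0795 and 0.854 CPM in mnd1.a libraries, against 1.598, 5.48, 3.10 and 9.27 CPM in Bowman (log2 -3.79 ± 0.79, adjusted p = 0.0115). A neighbouring gene of the family (HORVU2Hr1G092300) had 0.0711, 0 and 0.549 CPM in mnd1.a libraries, against 1.92, 4.40, 2.24 and 8.60 CPM in Bowman (log2 -4.16 ± 0.76, adjusted p = 0.00456). In both genes every mnd1.a library was below every Bowman library. How reads of such related genes were shared in counting is not known here. Leaving out mnd1.a replicate 1 or 2 ended the call of VRS1 (highest adjusted p 0.0767), and neither gene was called on the 7 libraries alone or with the covariate. Over all 78 homeobox genes tested, 3 rose and 8 fell (14.1% called, against 3.91% of all genes). All of these calls were lost on the 7 libraries alone, and leaving out 1 library gave 2 to 13 lower and 1 to 4 higher.

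Squamosa promoter-binding-like genes, targets of miR156 in phase change, had 2 of 17 lower and 0 higher (11.8% called, against 3.91% of all genes), and leaving out 1 library gave 1 to 4 lower. SPL17 (HORVU0Hr1G020810) had 20.8, 22.2 and 19.0 CPM in mnd1.a libraries, against 39.7, 50.4, 26.5 and 52.8 CPM in Bowman (log2 -1.03 ± 0.19, adjusted p = 0.00453). The groups did not overlap, and the call was lost on the 7 libraries alone (0.134), with the covariate (0.119) and without Bowman replicates 2 and 4 (0.0638). SPL7 (HORVU2Hr1G097590), the other call (adjusted p = 0.0175), was lost in the same 3 fits and without mnd1.a replicate 1 or 2 or Bowman replicate 4 (highest 0.0918). TCP factors, which regulate cell proliferation, had 0 of 18 genes called by edgeR, with 10 at an unadjusted p under 0.05, 3 called by DESeq2, 0 by limma-voom and 8 with library weights, and 15 of 18 fold changes above 0 (median 0.39). ALOG factors, which act in meristem maturation in rice, had 0 of 9 called by edgeR, with 2 at an unadjusted p under 0.05, 1 called by DESeq2, 1 by limma-voom and 3 with library weights, and 7 of 9 above 0 (median 0.55).

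ERF12 (HORVU1Hr1G067160, annotated as an ethylene-responsive transcription factor) had 0.782, 0.636 and 1.10 CPM in mnd1.a libraries, against 3.07, 3.90, 3.75 and 5.65 CPM in Bowman. The groups were well apart (log2 -2.25 ± 0.27, adjusted p = 6.29e-05), and the gene was called on the 7 libraries alone (0.0248) and with the covariate (0.00191). At W2.0 its mean was 1.39 CPM in mnd1.a libraries, against 1.21 CPM in Bowman, and at W5.0 3.89 CPM in mnd1.a libraries, against 4.55 CPM in Bowman. On the log2 scale, the line difference at W3.5 minus that at W2.0 was -2.45 (adjusted p = 0.00963), and minus that at W5.0 it was -2.03 (adjusted p = 0.00238). At W5.0, unlike W3.5, the lines also differ in library code prefix. LBD37 (HORVU2Hr1G035160), of the LOB domain family, had 11.7, 12.5 and 8.60 CPM in mnd1.a libraries, against 29.5, 25.5, 23.0 and 20.3 CPM in Bowman (log2 -1.17 ± 0.17, adjusted p = 0.000543), and it was called in the same direction at W2.0 (log2 -1.34) and W5.0 (log2 -1.09).

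Against 1.77% higher and 2.13% lower over all genes, the hormone lists held 1 higher and 1 lower of 33 cytokinin genes (6.06% called), 2 higher of 22 gibberellin genes (9.09%), 6 lower of 127 auxin genes (4.72%), 2 higher of 62 jasmonate genes (3.23%) and 1 higher of 48 genes of brassinosteroid, abscisic acid and ethylene (2.08%). When 1 library was left out, the auxin genes called lower ran from 2 to 8 and the cytokinin genes called lower from 0 to 7. The gibberellin receptor GID1 (HORVU7Hr1G057260) had 10.2, 11.5 and 8.24 CPM in mnd1.a libraries, against 4.73, 3.32, 3.62 and 4.30 CPM in Bowman, and this rise of 1.32 ± 0.20 (log2, adjusted p = 0.000651) was called in every fit above, also with the covariate (0.0257). Cytokinin oxidase 1 (HORVU1Hr1G057860), which breaks down cytokinin, had 2.35, 2.39 and 1.59 CPM in mnd1.a libraries, against 0.831, 0.166, 0.431 and 0.337 CPM in Bowman (adjusted p = 0.00437, but 0.117 on the 7 libraries alone, 0.0516 without Bowman replicates 2 and 4 and 0.122 with the covariate). The auxin-responsive repressor gene IAA2 (HORVU3Hr1G019750) had 20.77, 20.99 and 19.95 CPM in mnd1.a libraries, against 31.4, 44.7, 41.3 and 44.3 CPM in Bowman, without overlap (log2 -0.97 ± 0.14, adjusted p = 0.000382).

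The 5 other auxin genes that fell include the response factors ARF19 (HORVU7Hr1G096460, log2 -0.97), ARF15 (HORVU1Hr1G087460, log2 -0.38) and ARF14 (HORVU1Hr1G076690, log2 -0.53). The response factors had adjusted p of 0.0104, 0.0116 and 0.0350, and all were lost on the 7 libraries alone and without mnd1.a replicate 2. ARF14 was lost also without mnd1.a replicate 1 or 3 or Bowman replicate 2 or 4 (highest adjusted p 0.163). ACC oxidase 1 (HORVU7Hr1G116830), of the last step of ethylene synthesis, had 20.7, 20.1 and 15.2 CPM in mnd1.a libraries, against 6.71, 3.32, 1.34 and 2.28 CPM in Bowman (log2 2.46 ± 0.49, adjusted p = 0.00932). Its call was lost on the 7 libraries alone (0.0969), without Bowman replicates 2 and 4 (0.0788) and with the covariate (0.145). The gene lies on 7H between 620 and 660 Mb, the segment around MND1 where calls were dense. Lipoxygenase 2 (HORVU6Hr1G000510), of the jasmonate pathway, had 2.13, 0.954 and 3.05 CPM in mnd1.a libraries, against 0.0639, 0, 0 and 0 CPM in Bowman (adjusted p = 0.00272, and 0.0856 with the covariate).

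Genes of the plant surface mostly had fold changes above 0. Of 143 cuticle and wax genes 6 rose and 1 fell, near the share over all genes, with 101 fold changes above 0 and a median of 0.28. Over all genes, 10258 of 21132 fold changes were above 0. Leaving out 1 library gave 2 to 15 higher and 0 to 3 lower in this list. The very-long-chain fatty acid enzyme KCS6 (HORVU7Hr1G042070) had 6.83, 4.69 and 4.45 CPM in mnd1.a libraries, against 1.02, 1.41, 0.775 and 0.421 CPM in Bowman (log2 2.55 ± 0.38, adjusted p = 0.000651, and 0.0248 on the 7 libraries alone). A GDSL esterase/lipase gene (HORVU4Hr1G004100) had 94.4, 99.1 and 90.8 CPM in mnd1.a libraries, against 49.3, 64.7, 58.6 and 51.2 CPM in Bowman (log2 0.76 ± 0.12, adjusted p = 0.00149). Subtilisin-like proteases had 6 of 42 higher and 2 lower, a share of 19.0% against 3.91% of all genes, and HORVU3Hr1G069030 had the smallest adjusted p (log2 1.17 ± 0.19, adjusted p = 0.00181). On the 7 libraries alone all 8 lost their call.

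Sucrose synthase 4 (HORVU2Hr1G030870), which splits sucrose, had 6.26, 6.84 and 6.16 CPM in mnd1.a libraries, against 20.2, 21.5, 22.8 and 19.6 CPM in Bowman. Replicates of each line were tight, and the log2 fold change was -1.71 ± 0.19 (adjusted p = 2.66e-05, 0.00122 on the 7 libraries alone and 0.000433 with the covariate). It was the 1 gene called of 42 sugar genes tested.

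Cytosolic ribosomal protein genes had 6 of 173 higher and 1 lower with 141 fold changes above 0 (median 0.19), and histone genes 4 of 177 higher and 2 lower with 152 above 0 (median 0.41). The shares called, 4.05% and 3.39%, were near the 3.91% of all genes. Summed over the list, histone genes held 23806, 21986 and 22954 CPM in mnd1.a libraries, against 18623, 19031, 9187 and 21753 CPM in Bowman. Bowman replicate 3 stood far below the other Bowman libraries, and Bowman replicate 4 came close to the lowest mnd1.a library. Ribosomal protein S3 (HORVU7Hr1G067280) had 942, 1026 and 683 CPM in mnd1.a libraries, against 514, 338, 391 and 486 CPM in Bowman (log2 1.03 ± 0.18, adjusted p = 0.00243, but 0.0710 on the 7 libraries alone and 0.0601 with the covariate). When 1 library was left out, the number called higher ran from 2 to 51 for ribosomal protein genes and from 0 to 17 for histone genes. The member that fell, RPL30 on 7H (HORVU7Hr1G110660), had 59.9, 59.2 and 49.1 CPM in mnd1.a libraries, against 174, 158, 120 and 135 CPM in Bowman, and another RPL30 gene (HORVU0Hr1G023290) had 310, 324 and 258 CPM in mnd1.a libraries, against 219, 173, 193 and 191 CPM in Bowman. The 2 RPL30 genes thus moved in opposite directions (log2 -1.39 ± 0.12 and 0.62 ± 0.10). RPL30 on 7H lies between 620 and 660 Mb, the segment around MND1 where calls were dense. The rise of HORVU0Hr1G023290 was lost on the 7 libraries alone (0.0944) and with the covariate (0.0582).

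**Figure D4:**
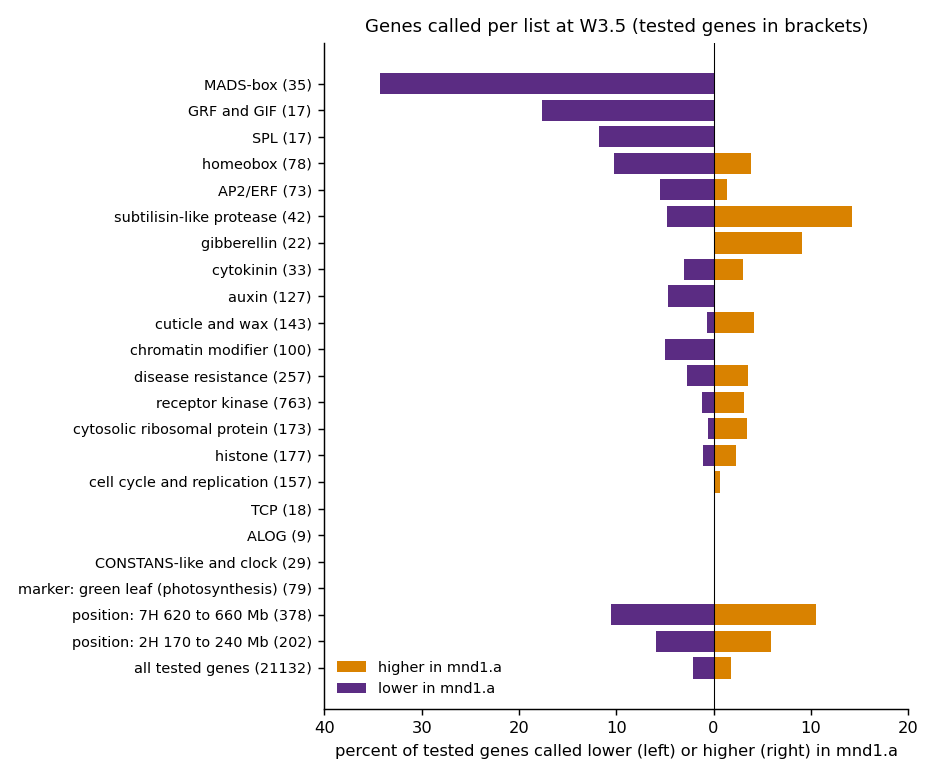
Percent of tested genes called lower (purple, left of 0) or higher (orange, right of 0) in mnd1.a at W3.5, by gene list, with the number of genes tested in brackets. MADS-box genes have 12 of 35 lower and 0 higher, and the 7H segment around MND1 has 40 of 378 in each direction, while over all genes tested 2.13% are lower and 1.77% higher.

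Lists of other cell types and of RNA quality are given beside the 3.91% called over all genes. Of 79 green leaf genes 0 were called by edgeR, with 5 at an unadjusted p under 0.05, 0 called by DESeq2 and limma-voom and 5 with library weights. Their summed level was 1280 to 1945 CPM in mnd1.a libraries, against 1437 to 1963 CPM in Bowman, and 1 of 97 matched genes had no counts in each line. Stamen and pollen genes had 1 of 12 higher (8.33%), while 9 of the 12 fold changes were below 0 and 3 above (median -0.18). Meristem genes had 1 of 17 lower (5.88%), transcripts that resemble ribosomal RNA 1 of 75 lower (1.33%) and heat shock genes 2 of 168 higher and 4 lower (3.57%). By edgeR 0 of 7 vascular and 0 of 11 organelle-encoded genes were called, with 1 and 3 at an unadjusted p under 0.05, 0 and 1 called by DESeq2, 0 and 0 by limma-voom and 2 and 2 with library weights. The meristem list summed to 238 to 323 CPM in mnd1.a libraries, against 257 to 389 CPM in Bowman. The part of cell makeup in the gene differences was not tested.

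Calls were dense around MND1 on 7H. Between 620 and 660 Mb, 80 of 378 genes tested (21.2%) differed, 40 higher and 40 lower in mnd1.a, and 32 of them were called on the 7 libraries alone, against 54 of 20552 outside this segment and a segment of 2H. Elsewhere on 7H, 33 of 2366 genes were higher and 44 lower (3.25%). On 2H between 170 and 240 Mb, 24 of 202 genes (11.9%) differed, 12 in each direction. The segments were known from earlier results of these data, so their density is a description.

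Several genes of these segments were nearly silent in 1 line. A receptor-like protein kinase gene (HORVU7Hr1G107510) had 55.5, 56.6 and 95.0 CPM in mnd1.a libraries, against 3.26, 0.913, 0.603 and 0.674 CPM in Bowman (log2 5.66 ± 0.39, adjusted p = 1.96e-07). A disease resistance protein gene (HORVU7Hr1G120020) had 0.498, 0.875 and 0.427 CPM in mnd1.a libraries, against 48.1, 46.6, 67.5 and 48.1 CPM in Bowman (log2 -6.48 ± 0.63, adjusted p = 1.51e-05), while a second (HORVU7Hr1G118440) had 6.76, 5.49 and 10.4 CPM in mnd1.a libraries, against 0.0639, 0, 0.0431 and 0.0843 CPM in Bowman (adjusted p = 7.12e-08). In each of these genes the lines lay far apart, although Bowman replicate 1 stood above the other Bowman libraries for the kinase gene and Bowman replicate 3 for HORVU7Hr1G120020. Another disease resistance gene (HORVU7Hr1G117570) had no counts in mnd1.a, against 1.18 to 4.78 CPM in Bowman, at least 45.2-fold lower when the group is given 3 counts in all.

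**Figure D5:**
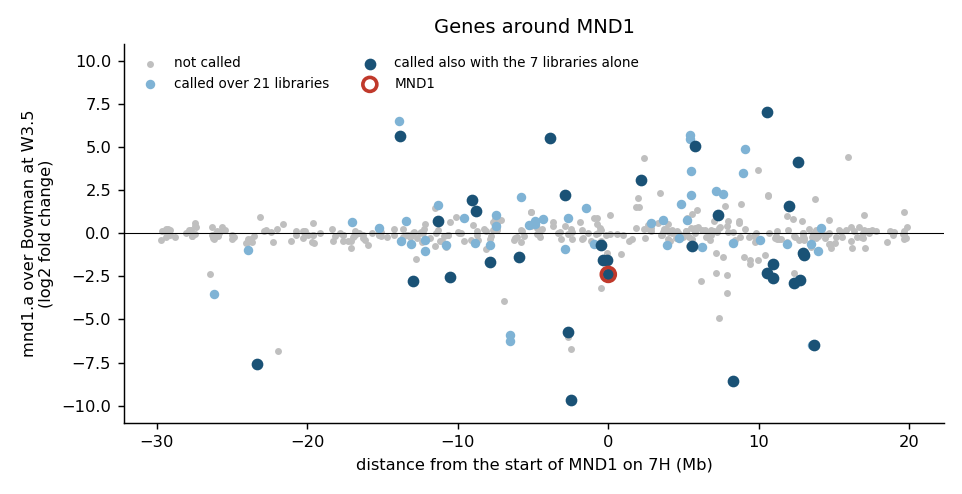
Log2 fold change of mnd1.a over Bowman at W3.5 (vertical axis) against distance from the start of MND1 on 7H (horizontal axis, Mb), 1 point per tested gene. Dark points were called also on the 7 libraries alone, light blue points only in the fit over 21 libraries and grey points in neither, and MND1 is ringed in red at -2.38. Called genes lie on both sides of MND1 and in both directions.

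On the 2H segment, the RNA editing factor gene MORF5 (HORVU2Hr1G040170) had 2.63, 2.70 and 2.75 CPM in mnd1.a libraries, against 17.8, 29.5, 40.9 and 26.2 CPM in Bowman (log2 -3.41 ± 0.38, adjusted p = 5.18e-05). A lysine-specific demethylase 5D gene (HORVU2Hr1G045000) had 0, 0.0795 and 0.244 CPM in mnd1.a libraries, against 2.43, 4.07, 3.23 and 1.94 CPM in Bowman (log2 -4.57 ± 0.61, adjusted p = 0.000206). A subunit gene of the photosynthetic NDH complex (HORVU2Hr1G042420) had 4.41, 3.58 and 5.31 CPM in mnd1.a libraries, against 0, 0, 0.0431 and 0.0843 CPM in Bowman (adjusted p = 1.96e-07). Each of the 3 was called in the same direction at W2.0 and at W5.0.

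Away from both segments, a bZIP transcription factor gene on 1H (HORVU1Hr1G072090) had 4.27, 4.61 and 4.15 CPM in mnd1.a and no counts in Bowman, at least 90.9-fold higher when the group is given 3 counts in all (adjusted p = 1.61e-06). An epimerase/dehydratase gene on 3H (HORVU3Hr1G055600) had 0.498, 0.716 and 1.53 CPM in mnd1.a libraries, against 11.1, 12.3, 17.4 and 14.8 CPM in Bowman (log2 -3.88 ± 0.33, adjusted p = 1.29e-06). UBC22 on 6H (HORVU6Hr1G033190), a ubiquitin-conjugating enzyme gene, had 0.711, 0.954 and 0.244 CPM in mnd1.a libraries, against 8.95, 9.79, 6.98 and 14.2 CPM in Bowman (log2 -4.00 ± 0.43, adjusted p = 2.51e-05). These genes too kept their direction with calls at W2.0 and W5.0.

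Across stages, 70 of the 826 genes (8.47%) were called in the same direction at W2.0, where 0.554% of all genes tested were, and 607 (73.5%) at W5.0, where 26.5% were. No library is shared between the stages, but all these calls come from the same fit, which gives each gene a common spread over the stages. The calls at different stages are therefore not independent. Of the 93 genes called in both W3.5 fits, 51 (54.8%) were called in the same direction at W2.0. In the 7H segment 31 of 80 and in the 2H segment 7 of 24 were, against 32 of the 722 called elsewhere. At W5.0, unlike W2.0 and W3.5, the lines also differ in library code prefix, so against W5.0 stage and prefix cannot be told apart. A direct test of the line difference between stages called 40 genes (0.189%) for W3.5 against W2.0 and 215 (1.02%) for W3.5 against W5.0, of which 19 and 18 were among the 826. For MND1 the same test missed the threshold (adjusted p = 0.437 against W2.0 and 0.369 against W5.0), and among the MADS-box genes named, MADS5 was called for W3.5 against W2.0 (adjusted p = 0.0384). Of the 12 MADS-box genes that fell at W3.5, 4 were called lower at W5.0 as well, and the median log2 fold change of the 12 was -3.29 at W3.5 and -0.77 at W5.0. The 12 were chosen by their call at W3.5, which by itself favours a larger median there, so the 2 medians are only a description.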

How the data were processed

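RNA of 22 samples was sequenced, and 21 libraries in 6 groups of line and stage were used. The sample of cultivar Mesa was not analysed here. The authors deposited an estimated count per transcript made with Salmon, per the file headers. The submitters' processing notes list further tools (BWA 0.7.15, GATK, limma). The log2 fold changes and the p-value and FDR columns of the deposited table are the authors'. No source used here names the genome build. The 21 per-sample columns of the authors' log2 values were not used.

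Counts were rounded. Genes passed filterByExpr (minimum count 10, total 15), libraries were scaled by TMM (factors 0.963 to 1.08 in the 7 W3.5 libraries) and CPM values use these. A 6-group model was fitted with edgeR 4.0.16 in R 4.3.3 (robust quasi-likelihood F test, Benjamini-Hochberg adjustment over all tested genes), and adjusted p-values are from edgeR unless named otherwise. Interactions compare the line difference between stages. Standard errors come from the F statistic. A count of 0 allows up to 3 counts, 0.129 to 0.253 CPM per W3.5 library, for counting error only. Stage position projects a library's log2 CPM (prior count 0.25) on the Bowman W2.0 to W5.0 difference over 4721 rising and 5058 falling genes, with no test.

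Gene lists are word patterns on the annotation, 10 of them with exclusions for wrong matches made after reading annotations, and no set test was run. Named genes are MND1, up to 5 called genes per list and direction, the 12 largest increases and 12 largest decreases called in both fits with at least 1 CPM, and fixed flowering genes. Not every gene the rule names is printed. Members and lists were chosen with earlier results of these data known. Counts of 591 transcripts, 428 tested, equal another transcript's. Alternatives include DESeq2 1.42.0 and limma 3.58.1. Replicate numbers come from column headings and name libraries only. The code was tested on simulated data.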

Additional observations from a re-analysis of the deposited data

Results flagged for a closer look

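Several named genes had 1 Bowman library far from the other 3 at W3.5 (Dixon's test, which chance passes in about 1 of 20 groups). With 72 genes named, a few such flags are due by chance alone, and the number flagged is not read further. VRN-H1 (HORVU5Hr1G095630) was low in replicate 1, at 184 CPM, and the second MADS14 gene (HORVU1Hr1G047560) was high in replicate 4, at 22.9 CPM. The receptor-like kinase gene HORVU7Hr1G107510 was high in replicate 1, at 3.26 CPM, and the disease resistance gene HORVU7Hr1G120020 in replicate 3, at 67.5 CPM. In 3 further genes the test says nothing, since with 3 libraries at 0 its ratio is 1 whatever the remaining value. Lipoxygenase 2 (HORVU6Hr1G000510) and bHLH130 (HORVU2Hr1G073240) had 0.0639 CPM in replicate 1, under the 0.192 CPM that 3 counts make there, and HORVU5Hr1G042570 (A/B barrel domain) had 0.166 CPM in replicate 2, under the 0.249 CPM of 3 counts there.

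The line difference at W3.5 differed from that at W2.0 or W5.0, by edgeR's interaction test, for 5 named genes. On the log2 scale, the difference at W3.5 minus that at W2.0 was -9.63 for MADS5 (HORVU7Hr1G025700, adjusted p = 0.0384). Near-zero levels of MADS5 at W2.0 make the size uncertain. The value was -3.96 for FPF1 (HORVU2Hr1G007350, adjusted p = 0.0322) and -2.45 for ERF12 (HORVU1Hr1G067160, adjusted p = 0.00963). The difference at W3.5 minus that at W5.0 was -4.00 for the TERMINAL FLOWER 1 homolog HORVU4Hr1G078770 (adjusted p = 0.0316). This homolog was higher in mnd1.a at both stages, by log2 2.16 at W3.5 and 6.16 at W5.0. Against W5.0 the value was -2.55 for the homeodomain-leucine zipper gene HORVU2Hr1G095210 (adjusted p = 0.0386) and -2.03 for ERF12 (adjusted p = 0.00238). Since the lines also differ in library code prefix at W5.0, stage and prefix cannot be told apart in these comparisons with W5.0.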

How the results depend on the processing

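MND1 kept its direction and call in every alternative run, with log2 fold changes from -2.53 to -1.79. The 826 calls (375 higher, 451 lower) became 1487 (774, 713) with DESeq2, 3792 (1995, 1797) with limma-voom and library weights, 94 (39, 55) on the 7 W3.5 libraries alone, 344 (151, 193) without Bowman replicates 2 and 4, 164 (65, 99) when 0.01 and a 2-fold change were required, and 289 lower with limma-voom. Added after seeing the data were stage position as covariate, with 175 (64, 111), and a replicate block from the column headings on the 7 libraries, with 33 (9, 24). The numbers share no pairing that the labels state (correlations of same-numbered deviations -0.13, 0.02 and 0.12). Leaving out 1 library gave 265 to 2273 calls, 137 to 1164 higher and 128 to 1109 lower, 13 to 501 for W3.5 against W2.0 and 136 to 293 for W3.5 against W5.0, and MND1 -2.53 to -2.16. For W3.5 against W2.0, 40 became 370 with DESeq2, 23 with limma-voom and 25 without Bowman replicates 2 and 4, and for W3.5 against W5.0, 215 became 483 with DESeq2 and 430 without Bowman replicates 2 and 4. The cause was not tested. The alternatives not given here (DESeq2 size factors, no low-count filter, 1 transcript of each identical set, the 7H and 2H segments left out, all tested genes as the stage axis) moved no count by over 1.5 times. With the lists as first written, chosen after seeing the annotations, the acyltransferase list had 5 higher and 5 lower in place of 0 and 1. Of 66 named genes called, 0 changed sign, 45 held when any 1 library was left out, 29 on the 7 libraries alone and 26 with the covariate. Low counts limit genes near 0.129 CPM.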

Other observations

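Chromatin modifier genes had 5 of 100 lower in mnd1.a and 0 higher by edgeR at W3.5, against 2.13% lower over all genes, and 2 to 11 lower when 1 library was left out. Besides the demethylase gene on 2H, they are 2 genes annotated as histone-lysine N-methyltransferase 2A (HORVU1Hr1G068460, log2 -1.31, and HORVU1Hr1G025960, log2 -3.16) and 2 annotated as histone deacetylases (HORVU6Hr1G038710, log2 -0.34, and HORVU0Hr1G021730, log2 -1.47). The demethylase gene alone was called on the 7 libraries. Receptor kinase genes had 24 of 763 higher and 9 lower (4.33% called), near the 3.91% of all genes, and 9 to 47 higher and 4 to 33 lower when 1 library was left out. Disease resistance genes had 9 of 257 higher and 7 lower (6.23%), of which 6 were called on the 7 libraries alone, and 6 to 18 higher and 5 to 17 lower without 1 library. Among these 6 are HORVU7Hr1G117570, HORVU7Hr1G120020, HORVU7Hr1G118440 and HORVU7Hr1G111650, which lie in the 7H segment around MND1. The list was not split by position. WUSCHEL-related homeobox 7 (HORVU3Hr1G060950), a stem cell factor relative, was the meristem gene that fell, by 1.63 on the log2 scale (adjusted p = 0.0474). The meristem list had 0 genes called on the 7 libraries alone, without Bowman replicates 2 and 4 or with the covariate. Leaving out 1 library gave 0 to 3 lower.

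The remaining lists are given beside the 3.91% called over all genes. AP2/ERF factors had 1 of 73 higher and 4 lower (6.85%), YABBY, LOB and NAC factors 3 of 70 lower (4.29%), WRKY factors 1 of 19 lower (5.26%) and bHLH factors 2 of 92 higher and 1 lower (3.26%). Cell cycle genes had 1 of 157 higher (0.637%), primary wall genes 1 of 101 lower (0.990%), lignin and vascular genes 4 of 159 higher and 1 lower (3.14%), and pathogenesis-related genes 1 of 53 higher (1.89%). Of 30 acyl-CoA N-acyltransferase genes tested, MND1 was the 1 called.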
